A study of Mus musculus with 12 samples.

Results

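The chemokine ligands Ccl2, Ccl3, Ccl4, Ccl6, Ccl9, Ccl17, Ccl22, Cxcl2, Cxcl10 and Cxcl16 were followed across 4 groups of mouse epidermal cells. The members were taken by symbol, which gave 10 of the 23420 genes in the table. The cells were sorted from epidermis as CD45+CD3-CD11b+MHCII+, which selects leukocytes that carry CD11b and MHC class II and lack the T cell marker CD3. The mice were wildtype (wt) or carried the Cbfbeta2 knockout (KO), which removes a splice form of Cbfb, the partner subunit of the Runx transcription factors. Samples of each genotype were taken 5 days after birth (P5) and when the mice were 1.5 months old (1.5M). Each of the 4 groups had 3 libraries, and each tube held 100 cells. The 3 libraries of each group are described in the labels as independent preparations and no animal is named, so the p-values measure the spread between these libraries, which may be technical. The labels do not say in which cells of the knockout mice the gene was lost.

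Chemokines are small secreted proteins that guide leukocytes by binding receptors that couple to G proteins. In skin, Cxcl2 draws neutrophils through Cxcr2, Ccl2 draws monocytes through Ccr2, and Ccl3 and Ccl4 attract monocytes and T cells. Ccl17 and Ccl22 share the receptor Ccr4, which is found on skin-homing and regulatory T cells, while Cxcl16 is made as a membrane protein that Adam10 or Adam17 can release and that binds Cxcr6. The wildtype cells of this sort include Langerhans cells, the resident antigen-presenting cells of the epidermis.

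The values are molecule counts that the authors scaled to the same total of 37092 in every library, called scaled counts here. The libraries held 30913 to 77419 molecules, and those of the 1.5M KO group were the deepest, with 74620 to 77419. Where no molecule of a ligand was seen in a group, a count of 0 allows up to 3 molecules of that group's total. That floor is a scaled count of 0.895 for P5 wt and 0.907 for P5 KO, and for the older groups 0.831 (wt) and 0.485 (KO), and it covers counting error only. The sort genes (Ptprc, Itgam and 3 class II genes) were not at 0 in any group, but their sum moved with genotype: 746 to 870 in wildtype and 506 to 686 in knockout cells at P5, and 2245 to 2523 and 1243 to 1395 at 1.5M. Of these 5 genes, 2 were called lower in the knockout at P5, and at 1.5M 3 were lower and 1 higher. Their part in the ligand results was not tested. Cd3e was at 0 in all 12 libraries. Cbfb, the targeted gene, had 4.41 ± 0.536 in wildtype and 2.50 ± 1.09 in knockout cells at P5, and 10.5 ± 3.34 and 1.77 ± 0.712 at 1.5M (mean ± SD, n = 3, as for every ± below). These counts come from near the 3′ end and do not separate the splice forms of Cbfb, so they do not check the deletion itself. Every ligand passed the filter of a value above 0 in at least 3 of the 12 libraries. For the 8 ligands that were at 0 in some libraries, passing the filter rested on the groups in which they were present.

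At P5, 3 ligands rose (Cxcl2, Ccl6 and Ccl9) and Cxcl16 fell, which is 4 of 10. Of the 10023 genes tested, 1.8% were called in that comparison, 1.15% higher and 0.649% lower. The 10 ligands were chosen with earlier results of these data known. The shares and medians of all genes, here and below, are therefore given for scale and do not test the ligands as a set. At 1.5M, Ccl17 and Ccl9 rose and none fell, which is 2 of 10, against 5.28% of all genes tested (3.24% higher and 2.04% lower). In a fit to the 6 P5 libraries alone, on the same genes, none of the 10 ligands was called (6 at an unadjusted p under 0.05). With genes filtered in those 6 libraries, 5 were called. A call here means an adjusted p under 0.05 in limma with Benjamini-Hochberg adjustment over all tested genes, and differences are given as differences in log2(scaled count + 1), a scale that understates the change of low genes. The median difference of the 10 ligands was 1.60 at P5, where the median of all genes was -0.01, and 0.89 at 1.5M, where the median of all genes was 0.09. Because each library comes from a pool of cells, fewer cells that make a ligand and less of its RNA per cell cannot be told apart in any of these comparisons.

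**Figure D1:**
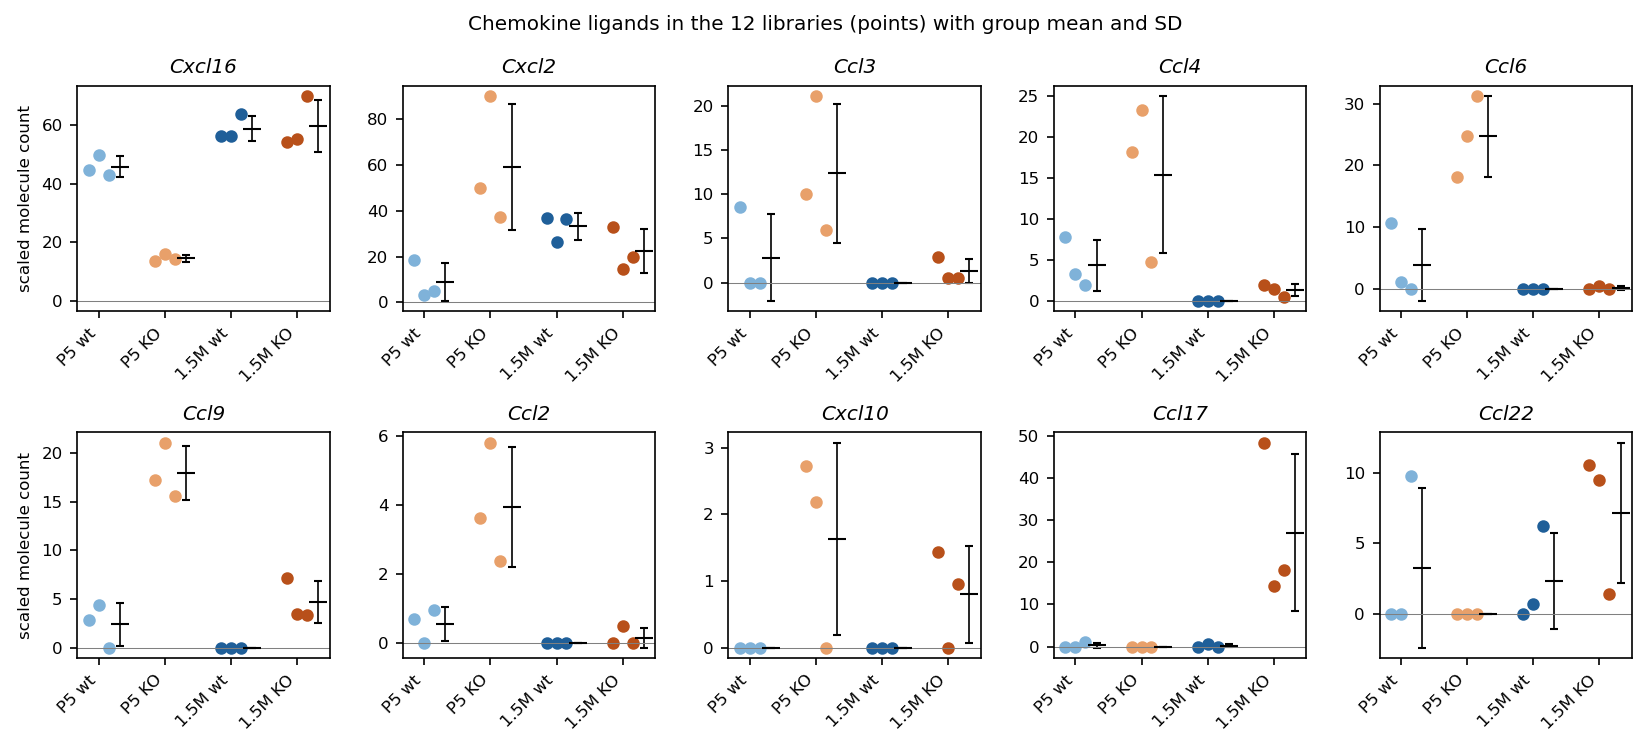
Scaled molecule counts (vertical axis, linear, one panel per ligand) in each of the 12 libraries, with points for libraries and a bar with error bars for the mean and SD of the 3 libraries of a group. Cxcl16 is lowest in the 3 P5 KO libraries (13.6 to 16.0), Cxcl2 has its lowest mean in P5 wt (3.25 to 18.5), and Ccl17 is above 1 only in the 3 libraries of 1.5M KO (14.4 to 48.4).

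Cxcl2, a CXC chemokine that attracts neutrophils, was present in all 12 libraries. Its gene lies on chromosome 5 at chr5:90903871-90905938, plus strand, in mm10. The bases before its start are shown because they hold matches to the kappaB motif, the site type bound by NF-kappaB. The motif was searched on both strands as GGG, any 3 bases and TTCC, and matches are in capitals.
Cxcl2: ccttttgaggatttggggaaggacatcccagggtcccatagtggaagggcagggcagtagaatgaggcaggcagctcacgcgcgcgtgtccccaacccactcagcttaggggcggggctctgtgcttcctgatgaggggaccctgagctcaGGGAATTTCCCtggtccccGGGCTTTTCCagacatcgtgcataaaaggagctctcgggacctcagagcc
This stretch is chr5:90903651-90903870 (RefSeq, GRCm38.p6, plus strand). It runs from -248 to -29 of the RefSeq gene start, which lies inside the gene as placed above. The first run of capitals holds a match at -97 to -88 and an overlapping reverse-complement match at -96 to -87, counted from the RefSeq gene start, and the second run is a match at -78 to -69. Of 32851 mouse promoters in the RefSeq table, 4.65% held this motif in the 250 bases before the start. A match describes the letters only and does not show that a factor binds there.

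Cxcl2 rose in the knockout at P5 and, within wildtype cells, with age. Its scaled counts in P5 wt were 18.5, 3.25 and 4.88, and those in P5 KO were 49.95, 90.2 and 37.2. All 3 P5 KO libraries lay above all 3 P5 wt libraries. The means were 8.87 ± 8.36 and 59.1 ± 27.7, a 6.66-fold difference in means and a log2 difference of 2.84 ± 0.41 (SE, adjusted p = 0.000489).

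At 1.5M no difference in Cxcl2 between the genotypes was detectable. Wildtype libraries of that age had 36.9, 26.5 and 36.4, knockout libraries 33.1, 14.4 and 19.6, and these ranges overlapped. The log2 difference of -0.61 did not pass (95% interval -1.47 to 0.24, adjusted p = 0.577). Wildtype cells had 3.75-fold more Cxcl2 at 1.5M than at P5 (log2 difference 2.11 ± 0.41 SE, adjusted p = 0.00253), with no overlap. The change from P5 to 1.5M in the knockout, -1.34, did not pass (adjusted p = 0.0833). It was called without P5 wt library 1 or 2 (adjusted p = 0.0232 and 0.0456) and without 1.5M KO library 1 (0.0314). The same change was called with voom on the approximate molecules (7.97e-05), with the replicate number as a block (0.0454) and with a pseudocount of 10 (0.0411). The knockout effect itself differed between the ages by -3.45 ± 0.58 (SE, adjusted p = 0.00112). In order of their means, the groups ran from P5 wt through 1.5M KO (22.4 ± 9.63) and 1.5M wt (33.3 ± 5.88) to P5 KO, and of these neighbours only 1.5M wt and P5 KO did not overlap.

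Cxcl16, the membrane-bound ligand that also acts as a scavenger receptor for oxidised lipoprotein, was the only ligand that fell in the knockout at P5. Its scaled counts were 44.8, 49.9 and 43.0 in P5 wt and 13.6, 16.0 and 14.4 in P5 KO. The groups were far apart and each was tight. The mean was 3.13-fold lower in the knockout (45.9 ± 3.60 against 14.7 ± 1.21), with a log2 difference of -1.58 ± 0.18 (SE, adjusted p = 3.59e-05). 

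At 1.5M, Cxcl16 did not differ detectably by genotype. The wildtype libraries had 56.2, 56.5 and 64.0, and the knockout libraries 54.2, 55.2 and 70.0. The values overlapped, and the 95% interval of the log2 difference ran from -0.37 to 0.40 around 0.01 (adjusted p = 1). Knockout cells had 4.07-fold more Cxcl16 at 1.5M than at P5 (log2 difference 1.95 ± 0.18 SE, adjusted p = 5.89e-07). In wildtype cells the rise with age, 0.35, did not pass (95% interval -0.03 to 0.74, adjusted p = 0.316), although the P5 and 1.5M libraries did not overlap. From P5 to 1.5M the knockout effect changed by 1.59 ± 0.26 (SE, adjusted p = 0.000792).

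The Cxcl16 gene at chr11:70453983-70459984, minus strand (mm10, GENCODE M21), overlaps Zmynd15 on the plus strand by 552 bases at the start of both genes. The counts come from near the 3′ end, while the overlap is at the start of both genes. Whether the authors counted by strand is not given in the sources used here, so any reads in that overlap cannot be told apart. Zmynd15 had 18.5 ± 2.17 in P5 wt and 1.67 ± 1.08 in P5 KO, and thus fell with Cxcl16 at P5 (log2 difference -2.93, adjusted p = 0.000658). At 1.5M the pair parted: Zmynd15 was 2.20 ± 2.22 in wt and 32.6 ± 3.67 in KO, a log2 difference of 3.70 (adjusted p = 4.99e-06), while Cxcl16 stood at 58.9 ± 4.39 and 59.8 ± 8.83.

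**Figure D2:**
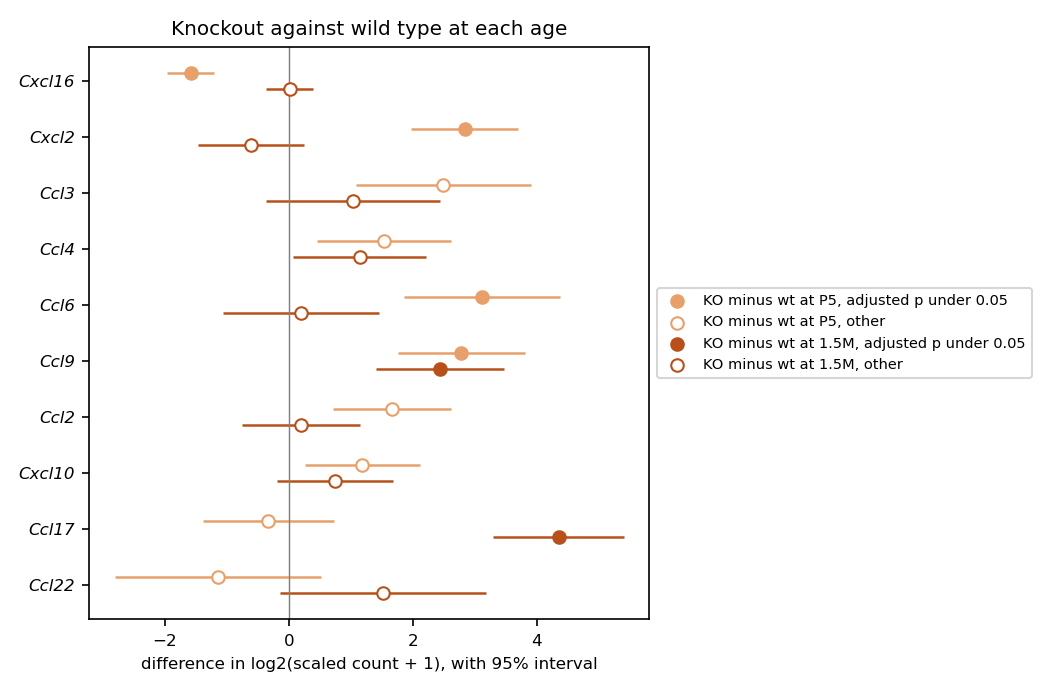
Difference between knockout and wildtype in log2(scaled count + 1) (horizontal axis) for each ligand at P5 and at 1.5M, with 95% intervals from limma; filled points have an adjusted p under 0.05. Cxcl2 (2.84), Ccl6 (3.12), Ccl9 (2.78) and Cxcl16 (-1.58) are filled at P5, and Ccl17 (4.35) and Ccl9 (2.44) at 1.5M.

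Ccl6 and Ccl9 are neighbouring rodent CC chemokines that bind Ccr1 and are made by myeloid cells. They lie on the minus strand of chromosome 11 at chr11:83587882-83593087 and chr11:83572919-83578636, with 9.2 kb between them. Both rose in the knockout at P5, and Ccl9 was also called at 1.5M. The difference of the effects between ages was not called for either (adjusted p = 0.0874 for Ccl6 and 0.900 for Ccl9). Without P5 wt library 1 that of Ccl6 was called (adjusted p = 0.00256). The bases before Ccl9 are shown because they hold both a kappaB match (reverse complement, -35 to -26) and a match at -53 to -47 to the AP-1 motif TGANTCA, which occurs in 6.75% of the promoters.
Ccl9: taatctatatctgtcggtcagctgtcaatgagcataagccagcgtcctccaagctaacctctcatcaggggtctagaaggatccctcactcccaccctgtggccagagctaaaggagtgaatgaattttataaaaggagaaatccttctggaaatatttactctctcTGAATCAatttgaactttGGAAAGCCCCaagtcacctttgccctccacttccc
This is chr11:83578637-83578856, written along the minus strand and thus in the direction of the gene. Ccl6 held no match to either motif in its 250 bases.

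The Ccl9 libraries had scaled counts of 2.84, 4.34 and 0 in P5 wt and 17.3, 21.1 and 15.6 in P5 KO. No knockout library overlapped a wildtype one. The means differed 7.51-fold (2.39 ± 2.20 against 18.0 ± 2.82), and the log2 difference was 2.78 ± 0.50 (SE, adjusted p = 0.00405). In 1.5M wt all 3 libraries were at 0, while the 1.5M KO libraries had 7.19, 3.48 and 3.35. The 1.5M KO mean was 5.62 times the floor of the wildtype group, and the log2 difference was 2.44 ± 0.50 (SE, adjusted p = 0.00279). Ccl9 fell from P5 to 1.5M within the knockout by 1.80 on the log2 scale (adjusted p = 0.0485). That call was lost in 12 of 21 alternative settings, with an adjusted p of up to 0.467. Among them were leaving out P5 KO library 1, 2 or 3 (0.123, 0.143 and 0.0907), 1.5M KO library 2 or 3 (0.165 and 0.183), P5 wt library 1 (0.0550) and 1.5M wt library 2 (0.0504). Within wildtype, the log2 difference from P5 to 1.5M, -1.45, did not pass (adjusted p = 0.0986), and without P5 wt library 3 the adjusted p was 0.00331. At P5, the Ccl9 call was lost with a pseudocount of 0.1 (0.105) and after thinning to equal depth (0.0570), and at 1.5M after thinning (0.0600).

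Ccl6 was high in the P5 knockout and nearly absent from both groups at 1.5M. Its libraries had 10.7, 1.08 and 0 in P5 wt and 18.2, 24.7 and 31.2 in P5 KO, with no overlap. The means were 3.91 ± 5.86 and 24.7 ± 6.52, a 6.31-fold difference, and the log2 difference was 3.12 ± 0.61 (SE, adjusted p = 0.00842). Without P5 wt library 3 the adjusted p was 0.0609, with a pseudocount of 0.1 it was 0.186, and after thinning 0.0559. At 1.5M all 3 wildtype libraries were at 0 and the knockout libraries had 0, 0.497 and 0, which is 1 molecule in the group. Within the knockout, Ccl6 fell from 80 molecules at P5 to 1 at 1.5M, a ratio of 149 after scaling for depth with a counting interval of 26.1 to 5978. The log2 difference with age was -4.46 ± 0.61 (SE, adjusted p = 6.51e-05). In wildtype cells the difference with age, -1.53, did not pass (adjusted p = 0.172), and without P5 wt library 3 the adjusted p was 0.0246.

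Ccl3 and Ccl4, the macrophage inflammatory proteins that attract monocytes and T cells, lie 13.2 kb apart on chromosome 11, at chr11:83647844-83649355 (minus strand) and chr11:83662584-83664683 (plus strand). Their means were higher in the P5 knockout, but neither passed. Ccl3 is shown because, of the 7 ligands with a RefSeq promoter, it was the one that held the Runx motif TGTGGT (-122 to -117), the type of site bound by the complex that Cbfb belongs to. The motif was in 14% of the promoters.
Ccl3: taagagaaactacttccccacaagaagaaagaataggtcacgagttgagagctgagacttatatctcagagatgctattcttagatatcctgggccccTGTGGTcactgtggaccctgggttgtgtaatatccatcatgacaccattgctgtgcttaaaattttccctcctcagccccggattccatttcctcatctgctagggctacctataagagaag
This is chr11:83649379-83649598, written along the minus strand.

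Ccl3 had 8.53, 0 and 0 in P5 wt and 9.99, 21.1 and 6.0 in P5 KO, and P5 wt library 1 lay within the range of the knockout. The log2 difference was 2.49 ± 0.68 (SE, adjusted p = 0.0666). Without P5 wt library 1 the adjusted p was 0.00327, and without 1.5M KO library 1 or 2 it was 0.0485 and 0.0499. With voom on the approximate molecules the adjusted p was 0.0105, and with the replicate number as a block 0.0435. Ccl4 had 7.82, 3.25 and 1.95 in P5 wt and 18.2, 23.3 and 4.80 in P5 KO, which also overlapped. Its log2 difference was 1.54 ± 0.52 (SE, adjusted p = 0.171), and without P5 KO library 3 the adjusted p was 0.0352. The knockout call of each of these genes at P5 thus changed when 1 library was left out.

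At 1.5M, both ligands were at 0 in all 3 wildtype libraries. The 1.5M KO libraries had 2.88, 0.497 and 0.479 for Ccl3 and 1.92, 1.49 and 0.479 for Ccl4. The knockout means, from 8 molecules of each ligand, were 1.55 and 1.56 times the floor of the wildtype group. These ratios leave out the error of the knockout mean, and neither difference passed (adjusted p = 0.564 and 0.293). With age, Ccl4 fell in wildtype cells by 2.26 on the log2 scale (SE 0.52, adjusted p = 0.0101). Its P5 wt mean was 5.22 times the floor of 1.5M wt. Without P5 wt library 1 the adjusted p of this fall was 0.0797, with a pseudocount of 10 it was 0.209, and after thinning to equal depth 0.128. In the knockout, both fell from P5 to 1.5M: Ccl4 by 2.66 (adjusted p = 0.00387) and Ccl3 by 2.54 (adjusted p = 0.0386). The Ccl3 call was lost without P5 KO library 1 or 2 (adjusted p = 0.104 and 0.174) and without 1.5M KO library 2 or 3 (0.121 and 0.136).

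Ccl2, the main monocyte attractant, is at chr11:82035571-82037453 on the plus strand. It was a low ligand here, with 0.710, 0 and 0.977 in P5 wt and 3.63, 5.82 and 2.40 in P5 KO. The groups did not overlap, but the wildtype values are 2 molecules and the knockout values 14, a ratio of 7.09 with a counting interval of 1.63 to 64.3. The log2 difference, 1.66 ± 0.46 (SE), did not pass (adjusted p = 0.0708). Ccl2 was at 0 in all 1.5M wt libraries and had 1 molecule in the 1.5M KO group. Its fall with age in the knockout, by 2.05 on the log2 scale, passed (adjusted p = 0.0122), and was lost without 1.5M KO library 1 or 3 (0.0743 and 0.0849).

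Cxcl10, a ligand induced by interferon that draws T cells through Cxcr3, was at 0 in all 6 wildtype libraries. It had 2.72, 2.18 and 0 in P5 KO and 1.44, 0 and 0.958 in 1.5M KO, so it was seen in 4 of the 6 knockout libraries. These values are 6 molecules in P5 KO and 5 in 1.5M KO, the deepest group. The P5 KO mean was 1.83 times the floor of P5 wt. At 1.5M the knockout mean, 0.799, lay below the wildtype floor of 0.831, so the wildtype zeros there do not show a lower level. Neither knockout comparison passed, with log2 differences of 1.19 (adjusted p = 0.243) and 0.75 (adjusted p = 0.505). Without P5 KO library 3 the P5 value was called (adjusted p = 0.0438). The stretch before the gene is shown because it held more kinds of searched motif than any other ligand with a promoter.
Cxcl10: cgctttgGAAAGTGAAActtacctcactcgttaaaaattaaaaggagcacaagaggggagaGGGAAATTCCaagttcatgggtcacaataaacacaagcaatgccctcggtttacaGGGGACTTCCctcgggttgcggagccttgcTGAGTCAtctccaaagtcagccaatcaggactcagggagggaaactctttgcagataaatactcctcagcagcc
This is chr5:92348890-92349109, written along the minus strand. In order, the capitals mark the interferon response motif, GAAA, any 2 bases and GAAA (-213 to -204; 2.98% of promoters), kappaB matches at -159 to -150 and -104 to -95, and an AP-1 match at -74 to -68.

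**Figure D3:**
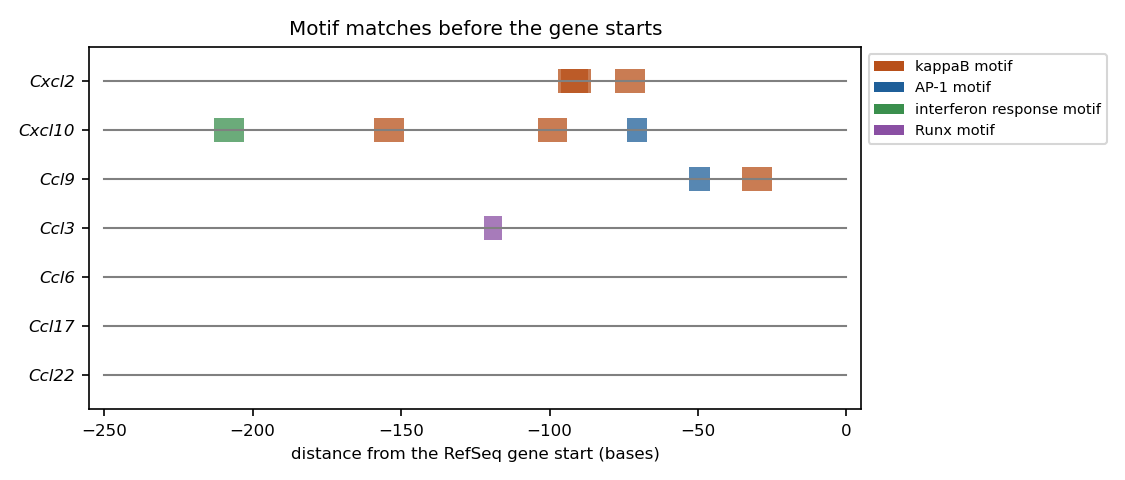
Matches to 4 searched motifs along the 250 bases before the RefSeq start of the 7 ligands with a promoter in the table (horizontal axis, bases from the start; one row per ligand). Cxcl2, Cxcl10 and Ccl9 hold kappaB matches, Cxcl10 and Ccl9 AP-1 matches, Ccl3 the Runx match, and Ccl6, Ccl17 and Ccl22 none.

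The kappaB motif was thus in 3 of 7 of the ligand promoters, AP-1 in 2, the interferon response motif in 1 and Runx in 1, while the C/EBP motif TTGCNNAA was in 0 of 7 (9.56% of all promoters). These counts are descriptions of 7 sequences. The ligands Cxcl2 and Ccl9, each with a kappaB match, were called at P5, and so was Ccl6, whose 250 bases held none. Cxcl10, also with kappaB matches, was not called at P5 (limma, adjusted p = 0.243). Cxcl16 was called at P5 but had no promoter to search.

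Ccl17 and Ccl22 attract T cells that carry Ccr4 and are made by dendritic cells and alternatively activated macrophages. They are neighbours on the plus strand of chromosome 8, with 58.8 kb between Ccl22 (chr8:94745590-94751699) and Ccl17 (chr8:94810453-94812036). The bases before Ccl17 are shown because its change in the adult knockout was the largest among the 10 ligands in the 2 knockout comparisons, and no searched motif matched there.
Ccl17: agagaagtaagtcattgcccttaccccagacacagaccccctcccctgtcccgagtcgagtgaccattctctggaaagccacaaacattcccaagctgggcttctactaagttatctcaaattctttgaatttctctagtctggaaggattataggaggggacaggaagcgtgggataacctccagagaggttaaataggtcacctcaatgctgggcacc
This is chr8:94810233-94810452 on the plus strand.

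Ccl17 was close to absent in 3 groups. It had 0, 0 and 0.977 in P5 wt and 0, 0.715 and 0 in 1.5M wt, and was at 0 in all 3 P5 KO libraries. In the 1.5M KO libraries it had 48.4, 14.4 and 18.2. No library of another group came near these values. The 1.5M KO group held 168 molecules and the 1.5M wt group 1, a ratio of 98.0 with a counting interval of 17.4 to 3895. The log2 difference was 4.35 ± 0.51 (SE, 95% interval 3.30 to 5.41, adjusted p = 3.46e-06). With age in the knockout, Ccl17 rose (log2 difference 4.61, adjusted p = 4.07e-06), and its 1.5M KO mean was 29.8 times the floor of P5 KO. At P5 the knockout effect was -0.33 (95% interval -1.38 to 0.73, adjusted p = 0.837), and the effects at the 2 ages differed by 4.68 ± 0.72 (SE, adjusted p = 0.000385).

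Ccl22 varied from library to library and passed in no comparison of the fit to all 12 libraries. It had 0, 0 and 9.77 in P5 wt, 0 in all 3 P5 KO libraries and, at 1.5M, 0, 0.715 and 6.22 in wildtype cells and 10.5, 9.44 and 1.44 in the knockout. The 1.5M KO range overlapped that of 1.5M wt, and the log2 difference of 1.52 had a 95% interval of -0.14 to 3.19 (adjusted p = 0.404). From P5 to 1.5M in the knockout the difference was 2.73 (adjusted p = 0.0651), and its adjusted p was 0.0182 without 1.5M KO library 3, 0.0219 without P5 wt library 3 and 0.0447 without 1.5M wt library 3. This difference was also called with voom on the approximate molecules (adjusted p = 5.58e-05). In P5 wt the 1 library with Ccl22, library 3, was also the only one with Ccl17.

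With age, 2 of 10 ligands were called in wildtype cells (Cxcl2 higher, Ccl4 lower), against 5.21% of all genes tested (2.36% higher and 2.84% lower). In this comparison the median of all genes was -0.22, and it moved by 0.11 to -0.11 when the libraries were scaled by median ratios. That scaling also changed the split of all calls from 237 higher and 285 lower to 286 and 183. In the knockout, 7 of 10 were called with age, against 3.14% of all genes (1.72% higher and 1.43% lower): Ccl17 and Cxcl16 rose, and Ccl2, Ccl3, Ccl4, Ccl6 and Ccl9 fell. In wildtype cells 6 ligands (Ccl2, Ccl3, Ccl4, Ccl6, Ccl9 and Cxcl10) were at 0 in all 1.5M libraries. The difference of the knockout effects between ages was called for 3 of 10 ligands (Ccl17, Cxcl2 and Cxcl16), against 2% of all genes (1.32% higher and 0.678% lower). These comparisons share their groups and are not independent of each other.

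Set against each other, the ligands made up a different mix in each group. Each molecule gave 1 count whatever its length, so shares of the summed scaled count of the 10 ligands are given without a length correction. In wildtype cells Cxcl16 led in all 6 libraries, with 66.1% ± 16.8 of the sum at P5 and 62.4% ± 3.90 at 1.5M. In P5 KO cells Cxcl2 led in all 3 libraries with 38.3% ± 5.45, followed by Ccl6 (17.9% ± 8.75) and Ccl9 (12.4% ± 1.88), and Cxcl16 was at 10.3% ± 2.54. In 1.5M KO cells Cxcl16 led again with 50.1% ± 14.3, and Ccl17 had 20.2% ± 8.79. The sum of the 10 ligands ran from 61.5 to 93.8 in wildtype and from 112 to 204 in knockout cells at P5, and from 84.4 to 107 and 99.9 to 160 at 1.5M. The P5 groups did not overlap in this sum, and the 1.5M groups did.

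**Figure D4:**
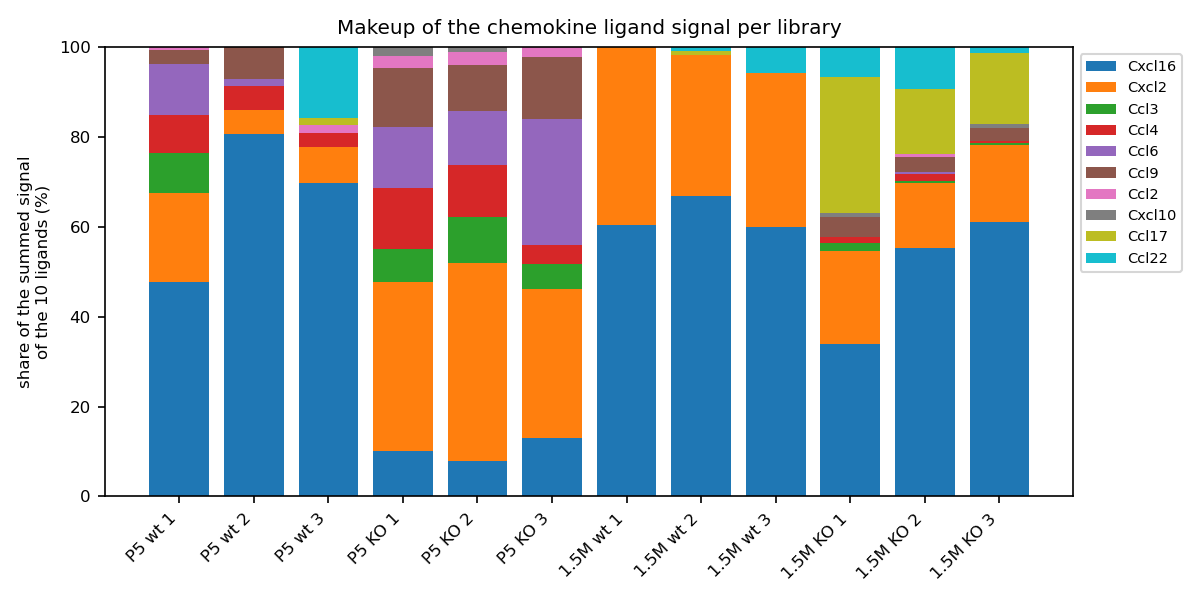
Share of the summed scaled count of the 10 ligands taken by each ligand (stacked bars to 100%, vertical axis in percent), one bar per library. Cxcl16 is the largest block in every wildtype and 1.5M KO library, and Cxcl2 in the 3 P5 KO libraries (33.3% to 44.1%).

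Markers of other cells moved with the P5 knockout and with the adult knockout. The summed neutrophil markers were 89.0, 51.9 and 246 in the P5 KO libraries, against 7.95 to 20.0 in P5 wt, with 2 of 10 markers at 0 in P5 KO and 6 in P5 wt. S100a8 was 35.4, 26.9 and 94.8 in P5 KO and at most 3.91 in P5 wt. S100a9 was 34.5, 16.0 and 104 in P5 KO and at most 1.42 in P5 wt. Of the 4 neutrophil markers tested, these 2 were called, both higher, and 3 had a positive difference. Cxcr2 had 6.80 ± 2.62 in P5 wt and 4.97 ± 1.72 in P5 KO, with fractional molecules in 11 libraries. Within P5 KO, the library with a neutrophil sum of 246 had the lowest Cxcl2 (37.2), Ccl3 and Ccl4 and the highest Ccl6 (31.2). The library with 51.9 had the highest Cxcl2 (90.2), Ccl3 and Ccl4. The order of 3 libraries cannot show which cells made a ligand. The library with 246 was also the shallowest of the 12, with 30913 molecules. Keratinocyte markers summed to 695, 225 and 256 in P5 KO and 67.4 to 93.8 in P5 wt, with none of 11 at 0 in either. Keratinocytes and red cells do not carry CD45 and CD11b together, so the sort should remove them. Erythroid markers summed to 357, 481 and 0.396 against 0 to 4.26, with none of 4 at 0 in P5 KO and 1 in P5 wt. Macrophage and monocyte markers summed to 184 to 208 in P5 KO and 149 to 181 in P5 wt, with none and 1 of 12 at 0, and 3 of 11 tested were called, all higher: Lyz2 (log2 difference 2.75, adjusted p = 0.00428), Fcgr1 (2.22, adjusted p = 0.0236) and Cd14 (2.04, adjusted p = 0.000812). Lyz2 had fractional molecules in 5 libraries and is uncertain for that reason. Of the 11, 7 had a positive difference, and the median was 0.28. C1qa went the other way, with 30.7 ± 3.87 in P5 wt and 20.0 ± 4.09 in P5 KO, and was not called. The part of these cells in the rise of Cxcl2, Ccl6 and Ccl9 was not tested. Langerhans cell markers summed to 12.5 to 17.7 in P5 KO and 62.9 to 77.2 in P5 wt, with 2 and 1 of 8 at 0, and so were lower where Cxcl16 was lower. Their part in the fall of Cxcl16 was not tested.

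At 1.5M, macrophage and monocyte markers summed to 520 to 598 in KO and 78.7 to 97.3 in wt, with 1 of 12 at 0 in KO and 3 in wt. Langerhans cell markers summed to 35.8 to 51.3 in KO and 391 to 485 in wt, with 1 of 8 and none at 0, while Cxcl16 had means of 59.8 and 58.9 in these groups. The markers of migratory or dermal dendritic cells summed to 19.2 to 25.6 in KO and 4.61 to 14.8 in wt, with 3 and 4 of 10 at 0. Of the 9 tested, 1 was called, Mgl2, a lectin of dermal dendritic cells and macrophages (log2 difference 1.90, adjusted p = 0.00133). The median of the 9 was 0.06, against 0.09 over all genes, and without Mgl2 the sums overlapped, with 9.27, 4.32 and 1.86 in KO and 1.84, 10.5 and 4.74 in wt. The part of these cell types in the rise of Ccl17 and Ccl9 was not tested. S100a8 was at 0 in all 3 libraries of 1.5M KO.

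**Figure D5:**
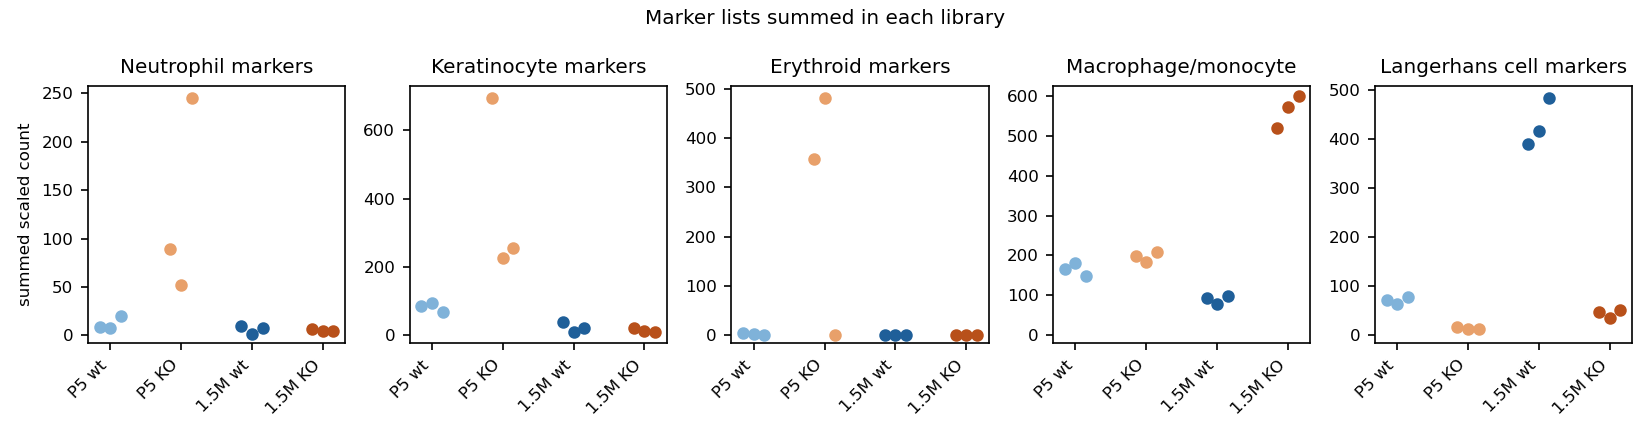
Summed scaled counts of 5 marker lists (vertical axes, linear, each with its own range) in the 12 libraries, coloured by group. Neutrophil, keratinocyte and erythroid sums are raised in P5 KO libraries (erythroid in 2 of 3), macrophage sums are highest in 1.5M KO (520 to 598), and Langerhans cell sums are highest in 1.5M wt (391 to 485).

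Of 31 other chemokine ligands, 9 were tested. In the P5 knockout comparison 0 passed in limma (4 at an unadjusted p under 0.05, 1 called with voom), and 8 of 9 had a positive difference (median 1.17). At 1.5M, Pf4, a platelet and macrophage CXC chemokine, rose in the knockout: it had 0.307 ± 0.532 in wt and 39.5 ± 11.02 in KO (log2 difference 4.99, adjusted p = 1.60e-05). The other ligand of Cxcr2 that moved, Cxcl1, rose with age in both genotypes, by 1.87 in wt (adjusted p = 0.0217) and 2.31 in KO (adjusted p = 0.00709). Cxcl1 thus rose with age in the knockout, where Cxcl2 had the difference of -1.34 that did not pass.

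The chemokine receptors listed, not only those of the 10 ligands, gave 10 tested genes of 24. The share of all genes called was 1.8% in the P5 knockout and 5.28% in the 1.5M knockout. With age it was 5.21% in wildtype and 3.14% in knockout cells. With voom, 2, 3, 6 and 4 receptors were called in these comparisons, in the order given. At P5, 3 rose in the knockout: Ccr2, the receptor of Ccl2 (3.03 ± 1.68 to 18.1 ± 10.3, log2 difference 2.17, adjusted p = 0.0191), Cxcr4 (1.92, adjusted p = 0.00609) and Cx3cr1 (1.79, adjusted p = 0.0148). Ccr6 fell: it had 1.81 ± 0.983 in P5 wt and was at 0 in all 3 P5 KO libraries (named after its values were seen). At 1.5M, 3 of the 10 rose in the knockout and none fell, among them Cxcr4 (5.32, adjusted p = 6.53e-10) and Cx3cr1 (4.36, adjusted p = 4.31e-08), and both were at 0 in 1.5M wt. With age in wildtype cells 6 of the 10 fell and none rose, among them Ccr1, the receptor of Ccl6 and Ccl9 (-2.49, adjusted p = 0.00280), and Ccr2 (-1.94, adjusted p = 0.0170). In the knockout, Cxcr4 rose with age (1.47, adjusted p = 0.0232), while Ccr2 (-2.88, adjusted p = 0.000608) and Ccr1 (-1.88, adjusted p = 0.0358) fell. Cxcr6, the receptor of Cxcl16, was at 0 in all 12 libraries, and Ccr4, the receptor of Ccl17 and Ccl22, was at or below 0.117 in each. Of the proteases that process chemokines, Adam17 rose in the 1.5M knockout (log2 difference 1.69, adjusted p = 0.0371) and at P5 0 of 3 passed (limma; 1 at an unadjusted p under 0.05, 0 with voom).

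NF-kappaB is known to drive several of these ligands, Cxcl2 and Cxcl10 among them. Of the 16 genes listed for it and its early cytokines, 3 rose in the P5 knockout and none fell: Nfkbiz (log2 difference 2.28, adjusted p = 0.00368), Nfkbia (1.82, adjusted p = 0.00969) and Tnfaip3 (1.23, adjusted p = 0.0448). Nfkbiz and the inhibitors Nfkbia and Tnfaip3 are themselves targets of NF-kappaB. In the 1.5M knockout 0 of 16 passed in limma (4 at an unadjusted p under 0.05, 3 with voom). With age in wildtype cells 5 rose, led by Tnfaip3 (3.04, adjusted p = 9.03e-07), Il1b (2.67, adjusted p = 1.64e-06) and Nfkbiz (2.65, adjusted p = 0.000157). Cxcl2 also rose in the P5 knockout and with age in wildtype cells, comparisons that share the P5 wt libraries. Over all genes tested, 1.15% were called higher in the first and 2.36% in the second. With voom, 2 of the 16 were called in the first and 5 in the second. The part of NF-kappaB in the Cxcl2 values was not tested. From P5 to 1.5M in the knockout, Il1b (1.89, adjusted p = 0.000234) and Tnfaip3 (1.41, adjusted p = 0.0120) rose, where Cxcl2 did not. Of 14 interferon response genes, 0 passed in the P5 knockout (limma; 0 at an unadjusted p under 0.05, 0 with voom), and Irf1 rose in the 1.5M knockout (1.70, adjusted p = 0.0440). The median of these 14 was 0.31 at P5 and 0.67 at 1.5M.

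The genes whose pattern over the 12 libraries was most like that of a ligand are given for the 8 ligands called in at least 1 comparison, as a description, since libraries of one group share their genotype and age. The candidates were genes with a mean of at least 5, ranked by Pearson's r of log2(scaled count + 1). Closest to Cxcl16 were Cd63 (r = 0.93), Lcp1 (0.92) and Rgs1 (0.89). Closest to Cxcl2 were Slc15a3 (0.82), Arf4 (0.80) and Bcl2a1b (0.79), the lowest set of values among the ligands examined. Ccl17 was most like Mmp12 (0.93), and Myadm was also close (0.89). Ccl9 was most like Lyz2 (0.94), Psap (0.92) and Lilrb4 (0.91), while Ccl6 was most like Gm5483 (0.96), Plin2 (0.95) and Krt14 (0.94). Ccl3 had Fn1 (0.91) first, followed by Ccl6 and Ccl4 (both 0.89), and Ccl4 had Krt1 (0.89), Ifitm3 (0.88) and Ccr2 (0.87). Ccl2 was most like Gm5483 and S100a8 (both 0.90) and Stfa1 (0.88).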

How the data were processed

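RNA of 12 tubes of sorted cells was copied from an oligo-dT primer with a molecular barcode, per the labels' protocols. TopHat2 and mm10 are named in the submitters' processing notes; the annotation, the counting tool and the use of strand are not given in the sources used here. Per gene, the deposited values are a signal: molecule counts that the authors scaled to 37092 per library. Within a library 92.6% to 94.9% of values above 0 were whole multiples of 1 step (tolerance 0.01), under the limit of 95%, so no count model was used and molecule numbers are approximate.

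limma 3.58.1 in R 4.3.3 (moderated test with trend, two-sided) was fitted to log2(scaled count + 1) with 4 group means over all 12 libraries, on 10023 genes above 0 in at least 3 libraries, with Benjamini-Hochberg adjustment per comparison at 0.05. The 5 comparisons were knockout against wildtype at each age, age within each genotype, and the difference of the knockout effects. Ratios against 1 to 3 molecules have exact 95% binomial intervals. Within each group the libraries differed beyond sampling noise. Positions are from GENCODE M21. Promoters are from RefSeq (GRCm38.p6), which held 7 of 10 members. List genes were matched by symbol, 7 of them by an older one. Up to 3 called genes with the largest change were named per list and comparison, and for likeness the 3 with the highest r. Zmynd15 was named after its values were seen. The tests were tried on simulated data. Members and lists were chosen with earlier results of these data known. A receptor and a gene of like pattern are not reported here.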

Additional observations from a re-analysis of the deposited data

Results flagged for a closer look

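The knockout effects of 3 ligands differed between the ages by the test of the difference itself (limma, adjusted over 10023 genes). Ccl17 differed by 4.68 on the log2 scale (adjusted p = 0.000385): it was at 0 in all P5 KO libraries and at 14.4 to 48.4 in all 1.5M KO libraries. Cxcl2 differed by -3.45 (adjusted p = 0.00112): it was higher in all 3 P5 KO libraries than in any P5 wt library, and its 1.5M groups overlapped. Cxcl16 differed by 1.59 (adjusted p = 0.000792): the P5 KO libraries had 13.6 to 16.0, under the 43.0 to 49.9 of P5 wt, and the 1.5M groups overlapped. All 3 calls held in each of 19 alternative settings, which did not include the fits to only the 6 libraries compared.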

How the results depend on the processing

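Of 50 member comparisons, 18 were called. Of these, 7 stayed called in every alternative run: the 3 differences of knockout effects, Ccl17 in the 1.5M knockout, and Ccl6, Ccl17 and Cxcl16 from P5 to 1.5M in the knockout. None reversed. Depth limits the ligands of a few molecules. The comparisons are listed in the order P5 knockout, 1.5M knockout, wildtype age, knockout age and difference, with 4, 2, 2, 7 and 3 members and 180, 529, 522, 315 and 200 genes called. With a pseudocount of 0.1, members called were 2 at P5 and 4 for knockout age, with 92 genes at P5 and 133 for the difference. A pseudocount of 10 left 1 member for wildtype age, and no filter left 118 genes at P5. Thinning every library to 30797 molecules (1 draw) left 2, 1 and 1 members in the first 3 comparisons and 41, 330, 283, 189 and 91 genes. With voom on the approximate molecules, 4 members were called for wildtype age, with 866 genes in the 1.5M knockout, 899 for knockout age (253 higher, 646 lower, against 172 and 143) and 348 for the difference. A fit to only the 6 libraries compared, on the same genes, called 0 of 10 members and 0 genes at P5 (limma; 6 and 836 at an unadjusted p under 0.05), 0 members and 111 genes for wildtype age (3 members at an unadjusted p under 0.05), and 3 members and 86 genes for knockout age. Chosen after seeing the data, the same fit with genes filtered in those 6 libraries called 5, 2, 2 and 8 members and 123, 652, 415 and 237 genes.

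Leaving out 1 library gave 3 to 6, 2 to 2, 1 to 4, 5 to 8 and 3 to 4 members, and 72 to 146, 359 to 560, 346 to 581, 169 to 337 and 141 to 193 genes. Same-numbered libraries did not deviate together (correlations of -0.04 to 0.11, and in 2 of 12 cases the same number was the best match). With counts this low, the check cannot exclude that the replicate numbers pair samples. With the replicate block, 5, 2, 2, 8 and 3 members and 147, 508, 504, 315 and 195 genes were called.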

Other observations

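Pf4 had a larger knockout effect at 1.5M than at P5 (difference of effects 4.28 on the log2 scale, adjusted p = 0.0112), like Ccl17 among the ligands described. Cxcl14, a chemokine of keratinocytes, fell from P5 to 1.5M within the knockout (-1.91, adjusted p = 0.0245). Its P5 KO mean was 6.17 times the floor of 1.5M KO.

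Among ligands outside the 10, Ccl24 was uneven in 1.5M KO, with scaled counts of 13.4, 0.994 and 0. Library 1 of that group, which held 13.4, also had the highest Ccl17 (48.4) and Ccr7 (5.75) of all 12 libraries. Its Ccl22 (10.5) was the highest too, but library 2 of the group had 9.44. P5 wt library 3, with 9.77 of Ccl22, had no Ccr7. Over libraries 1 to 3 of 1.5M KO, Fscn1 had 1.92, 0.994 and 0, while Il4i1 had 0, 0.746 and 1.198. The summed markers of migratory or dermal dendritic cells were 25.6, 19.2 and 24.9 there, and 9.27, 4.32 and 1.86 without Mgl2. The part of such cells in the values of library 1 was not tested. Ccl5 was 0.908, 8.73 and 9.60 in the P5 KO libraries, 1.42, 0 and 0 in P5 wt, and 0 in 1.5M wt.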
